A study of Mus musculus with 75 samples.

Results

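The noncoding RNAs described here are 7SK RNA (Rn7sk), the vault RNA Vaultrc5, the RNA subunits of RNase MRP (Rmrp) and RNase P (Rpph1), and the long nuclear RNAs Malat1 and Neat1. They are 6 of the 55536 genes in the count table and were chosen by gene symbol with their levels in uninvolved liver at 10 months in view, so those levels are given as a description with no test. All mice were of the C57Bl/6 strain, and the labels give every animal as male. Dams had received tributyltin (TBT), an organotin, in drinking water (3.07 µM, for a daily dose of 0.5 mg per kg) up to weaning, or vehicle. Whole liver was taken at 3 weeks (8 vehicle and 8 TBT libraries), at 5 months (8 vehicle, 10 high-risk TBT and 16 low-risk TBT) and at 10 months (6 vehicle, 5 low-risk TBT, 6 of uninvolved tissue of high-risk TBT livers and 7 of TBT tumors). How risk was assigned at 5 months is not stated in the labels. A further vehicle library of 10 months is labelled as a tumor and entered no comparison.

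7SK RNA is a short nuclear RNA made by RNA polymerase III. Bound by the capping enzyme MEPCE and by LARP7, it holds the elongation kinase P-TEFb (CDK9 with a cyclin T) inactive through HEXIM proteins. Vault RNA, also a polymerase III product, sits in the vault particle with MVP, PARP4 and TEP1. The RNase P RNA removes the 5′ leader of transfer RNAs and the related RNase MRP RNA cuts precursor ribosomal RNA. Malat1 gathers at nuclear speckles, which store splicing factors, and Neat1 is the scaffold of paraspeckles. The 3′ ends of Malat1 and of the long form of Neat1 are cut by RNase P, which releases a small transfer-RNA-like RNA.

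Positions and sequences are those of the GENCODE M21 annotation and transcripts on GRCm38. Rn7sk (ENSMUSG00000065037) lies at chr9:78175303-78175633 on the minus strand, a gene of 331 bases and a single exon. Its first 300 bases (chr9:78175334-78175633) are printed because it held the most counts of the 6. GATC is in capitals, the repeat that HEXIM proteins recognise as GAUC in the RNA.
Rn7sk: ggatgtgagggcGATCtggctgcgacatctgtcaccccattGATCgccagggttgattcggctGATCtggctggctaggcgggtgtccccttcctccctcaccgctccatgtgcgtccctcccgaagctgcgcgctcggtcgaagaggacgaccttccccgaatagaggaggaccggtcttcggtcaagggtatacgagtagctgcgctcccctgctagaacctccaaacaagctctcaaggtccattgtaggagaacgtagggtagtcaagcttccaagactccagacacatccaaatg
GATC stands at bases 13, 42 and 64, all near the 5′ end, and nowhere else in the 331 bases. The table also lists 11 genes with at least 90% identity to Rn7sk over at least 50% of it. Together these held 67869 counts, equal to 0.650% of the 10435940 counts of Rn7sk. How the counting treated reads that match several copies is not given in the sources used here, so a part of the Rn7sk counts may belong to copies or the reverse.

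Rmrp and Rpph1 overlap other genes, and what they share decides how their counts can be read. Rmrp has 2 overlapping gene models on the minus strand of chromosome 4, of 281 bases (ENSMUSG00000115420, chr4:43492783-43493063) and 271 bases (ENSMUSG00000088088, chr4:43492788-43493058). A stretch of 124 bases lies opposite an exon of the protein-coding gene Ccdc107. Shown are the stretches of the longer model on either side of that exon, with the bases that the longer model alone holds in capitals, 5 at each end. They lie at chr4:43493024-43493063 and chr4:43492783-43492899.
Rmrp 5′ stretch: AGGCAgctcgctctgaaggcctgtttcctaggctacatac
Rmrp 3′ stretch: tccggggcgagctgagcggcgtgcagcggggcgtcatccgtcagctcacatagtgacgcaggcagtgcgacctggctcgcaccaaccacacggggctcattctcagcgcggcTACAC
Rpph1 (ENSMUSG00000092837, chr14:50807449-50807767, minus strand, 319 bases) shares 233 bases with an exon of Ccnb1ip1 on the same strand. The 86 bases that it does not share lie at chr14:50807733-50807767 and chr14:50807449-50807499 and are shown in lower case without capitals.
Rpph1 5′ stretch: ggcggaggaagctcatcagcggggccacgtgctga
Rpph1 3′ stretch: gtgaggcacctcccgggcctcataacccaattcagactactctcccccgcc

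Rmrp was listed at 0 in all 75 libraries in both of its models. Over the 1524.76 M counts of all libraries, a count of 0 allows up to 3 counts, or 0.00197 counts per M (CPM), by counting error alone. Whether the RNA was absent cannot be read from this, since its models overlap other genes and the counting settings are not given. The shorter model lies wholly inside the exon of the longer one, and of 765 genes whose exons lie wholly inside exons of other genes on the same strand, 711 (92.9%) had no count. The longer model has the 10 bases in capitals for itself on its strand. Of 474 genes whose exons lie wholly inside exons of genes on the opposite strand, 473 (99.8%) had no count. Rmrp is not of this class, since only 124 bases of either model lie opposite Ccdc107. Among 43640 genes that share no exon base with another gene, 4030 (9.23%) had none. Rpph1 held 275 counts over 62 libraries and at most 18 in a single library, and its neighbour Ccnb1ip1 held 15 counts in 9 libraries.

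Malat1 (ENSMUSG00000092341, chr19:5795690-5802672, 6983 bases) and Neat1 (ENSMUSG00000092274, chr19:5824708-5845478, 20771 bases) are neighbours on the minus strand of chromosome 19. Small genes annotated inside them (Gm27694 in Malat1, and Gm27533, Gm27505 and Gm28006 in Neat1) were listed at 0 in every library, as was the antisense gene Gm37376 opposite Malat1. The small RNA gene Gm27702 (chr19:5824652-5824707, minus strand, 56 bases) begins at the base after the annotated 3′ end of Neat1 and is printed for that place.
Gm27702: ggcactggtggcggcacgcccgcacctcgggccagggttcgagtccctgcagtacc
Its 15 counts fell in 7 libraries, against 252758 counts of Neat1.

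Library totals ran from 2.83 M to 45.4 M counts, and those of uninvolved liver from 34.8 M to 44.6 M. Summed markers of hepatocytes reached 41787 to 208060 CPM and were high in every library. The counts of uninvolved libraries 3 and 6 were far closer to each other (chi-square per gene 4.55) than the next closest pair within any group (16.4, a pair of 10-month vehicles). These libraries were therefore summed as 1 sample, which leaves 5 uninvolved samples, and the 2 libraries of 3-week vehicle mouse 3 were summed because the labels give them the same number. Mitochondrial genes took 1.86 to 14.5% of the counts, and over 10% in 4 libraries. Levels are CPM scaled with TMM factors over all libraries, and levels of different RNAs are compared per kb of exon. The scaling matters for small differences. On total counts alone, an alternative added after the data were seen, the median log2 difference of all genes moved from 0.06 to 0.38 in uninvolved against 10-month vehicle liver and from -0.01 to 0.29 in tumor against vehicle. It moved from 0.05 to 0.30 in uninvolved against low-risk liver, from -0.01 to 0.30 in 5-month high-risk against low-risk, from -0.01 to 0.36 in high-risk against vehicle liver, and from 0.02 to -0.15 between vehicles of 5 months and 3 weeks.

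Per kb of exon, Rn7sk had by far the highest level of the 6 RNAs. Its mean in uninvolved liver was 35246 CPM per kb, against 476 for Malat1, 83.8 for Vaultrc5, 18.4 for Neat1 and 0.839 for Rpph1. In 10-month vehicle liver the means were 19310, 173, 5.80, 8.73 and 0.382 CPM per kb in the same order. Vaultrc5 thus stood above Neat1 per kb in uninvolved liver and below it in vehicle liver. The Rpph1 means use all 319 bases of its exon, of which 86 are not shared with Ccnb1ip1. How reads on the shared bases were counted is not given in the sources used here, so the Rpph1 means may be too low. All these means are levels in the deposited counts, which had been adjusted between batches, per the file name. A column-based RNA isolation was used, and how well it kept RNAs of these lengths was not tested.

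Rn7sk was higher in every uninvolved library than in any other library of 10 months. Its levels in uninvolved libraries 1, 3, 5, 6, 7 and 12 were 8454, 14011, 9525, 13349, 8207 and 18459 CPM. Among the 6 vehicle livers of that age the lowest, median and highest were 5709, 6288 and 7247 CPM, and the 5 low-risk livers had 5043, 5604, 5475, 6476 and 5219 CPM. The groups did not overlap. The mean of 11667 ± 4390 (SD, n = 5) in uninvolved liver stood beside 6392 ± 540 (SD, n = 6) in vehicle liver, a fitted difference of 1.75-fold (log2 0.81, SE 0.17). Against low-risk liver it was 2.04-fold (log2 1.03, SE 0.18). Rn7sk alone took 0.904 to 1.78% of all counts of the uninvolved libraries. Library 12 had the highest level of all 75, and without it the log2 difference from vehicle was 0.59.

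Vaultrc5 (ENSMUSG00000065145, 143 bases, plus strand, chr18:36801866-36802008) had the largest ratio between uninvolved and vehicle liver among the 4 RNAs that could be fitted. The uninvolved libraries, in the same order, had 11.1, 16.4, 8.77, 15.2, 6.53 and 17.7 CPM, from 250 to 655 counts each. Vehicle livers had 0.387, 0.877 and 1.08 CPM (lowest, median and highest, from 10 to 29 counts), and low-risk livers 0.776, 1.13, 0.638, 0.675 and 0.764 CPM. The groups did not overlap. The fitted difference was 13.8-fold from vehicle (log2 3.79, SE 0.27) and 14.6-fold from low-risk liver (log2 3.87, SE 0.29). Leaving out each uninvolved sample in turn gave log2 differences from vehicle between 3.62 and 3.95. Of all 75 libraries, 5 of the 6 uninvolved ones were the highest, and low-risk library 19 of 5 months (8.32 CPM) stood above the lowest of them.

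Malat1 was high in some uninvolved livers only. Its levels in uninvolved libraries 1, 3, 5, 6, 7 and 12 were 4778, 1288, 4300, 1329, 5044 and 1178 CPM. Vehicle livers had 918, 1118 and 1640 CPM (lowest, median and highest) and low-risk livers 929, 1259, 1098, 1156 and 1298 CPM. Libraries 1, 5 and 7 were above every other library of the series, while libraries 3, 6 and 12 lay within the range of the vehicles. The fitted difference from vehicle was 2.65-fold (log2 1.40, SE 0.33) and that from low-risk liver 2.83-fold (log2 1.50, SE 0.35). The spread inside the uninvolved group is wide, with a mean of 3322 ± 1917 CPM (SD, n = 5).

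Neat1 followed the same libraries. The uninvolved libraries had 450, 170, 541, 179, 567 and 184 CPM in the same order, and again 1, 5 and 7 were above every other library. Vehicle livers of 10 months ran from 76.1 to 332 CPM with a median of 142, and low-risk livers had 126, 142, 126, 99.2 and 187 CPM. The groups overlapped. Fitted differences were 2.04-fold from vehicle (log2 1.03, SE 0.43) and 2.75-fold from low-risk liver (log2 1.46, SE 0.45). Vehicle livers 5 and 7, at 332 and 314 CPM, lay well above the other vehicles, which had at most 164 CPM.

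Rpph1 was too low for a fit. Its 6 uninvolved libraries held 6 to 18 counts, or 0.157 to 0.370 CPM, and vehicle livers of 10 months had 0 to 0.219 CPM. These ranges overlap. TBT livers of 3 weeks had a median of 0.332 CPM and a highest value of 0.557 CPM, the highest of all 75 libraries.

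Of the 6 RNAs, 2 (Rn7sk and Vaultrc5) did not overlap between uninvolved and vehicle liver, nor between uninvolved and low-risk liver. In the first of these comparisons 57.7% of all genes tested passed an adjusted p of 0.05 (edgeR; 5093 higher and 4334 lower, or 8176 and 1728 on total counts), and in the second 52.4% (4520 and 4041, or 6828 and 1839). These contrasts were in view when the RNAs were chosen, so nothing is read from the count. Comparisons that share uninvolved or vehicle livers are not independent of each other.

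**Figure D1:**
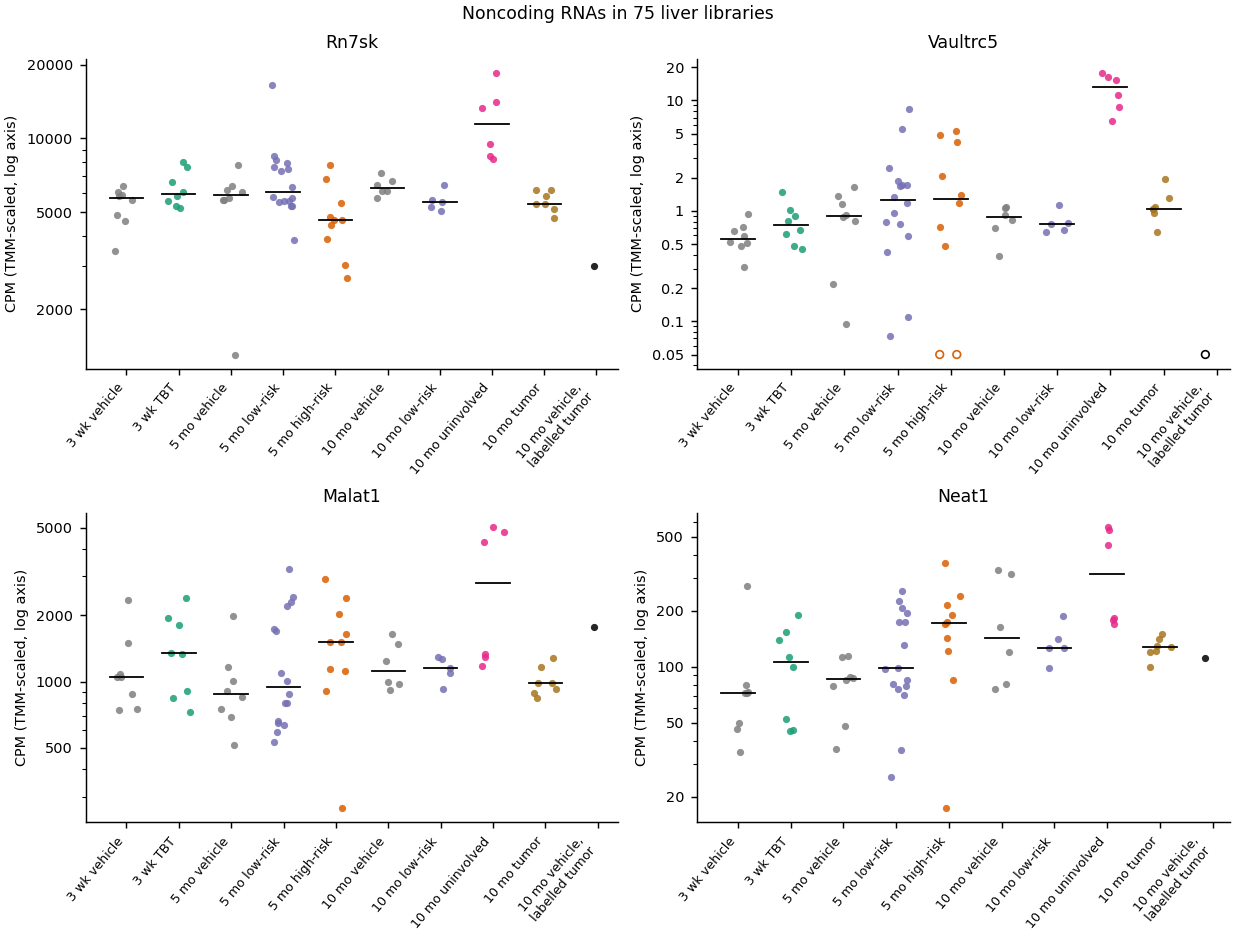
Levels of Rn7sk, Vaultrc5, Malat1 and Neat1 (TMM-scaled CPM, log axis) in every library, by group; each point is a library, bars are medians over libraries and open circles at the bottom mark libraries with 0 counts. Uninvolved liver spans 8207 to 18459 CPM for Rn7sk and 6.53 to 17.7 CPM for Vaultrc5, while its Malat1 points fall at 1178 to 1329 CPM and at 4300 to 5044 CPM.

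Rn7sk and Malat1 stood in opposite order among the uninvolved livers. Libraries 3, 6 and 12 had the 3 highest Rn7sk levels (13349 to 18459 CPM) and the 3 lowest Malat1 levels, and libraries 1, 5 and 7 the reverse. Since libraries 3 and 6 count as 1 sample, this rests on 5 samples. Vaultrc5 was also highest in libraries 3, 6 and 12, at 15.2 to 17.7 CPM, against 6.53 to 11.1 CPM in the others. The ratio of Rn7sk to Malat1 counts ran from 1.63 to 15.7 in uninvolved liver and from 3.73 to 7.31 in vehicle liver of that age. The ratio of Malat1 to Neat1 was less spread, at 6.41 to 10.6 in uninvolved liver.

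Measures of library content moved with these levels. Mitochondrial genes took 5.30, 5.40 and 5.85% of the counts in uninvolved libraries 1, 5 and 7, and 4.20 to 4.38% in libraries 3, 6 and 12. All 6 stood above the vehicle (3.14 to 3.83%), low-risk (2.94 to 3.08%) and tumor (2.64 to 3.46%) libraries of 10 months. Genes with at least 1 count numbered 24676 to 28715 in uninvolved liver and 21078 to 23868 in the other groups of that age. The uninvolved libraries were also deeper, at 34.8 to 44.6 M counts against 22.5 to 33.5 M in the vehicle, low-risk and tumor libraries. Depth and content cannot be told apart in these gene numbers. In the 4 libraries of the series with over 10% mitochondrial counts, Malat1 was at 1768 to 3254 CPM, Rn7sk at 3017 to 3838 CPM and Vaultrc5 at 0 to 0.664 CPM. The part of these measures in the levels was not tested.

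**Figure D2:**
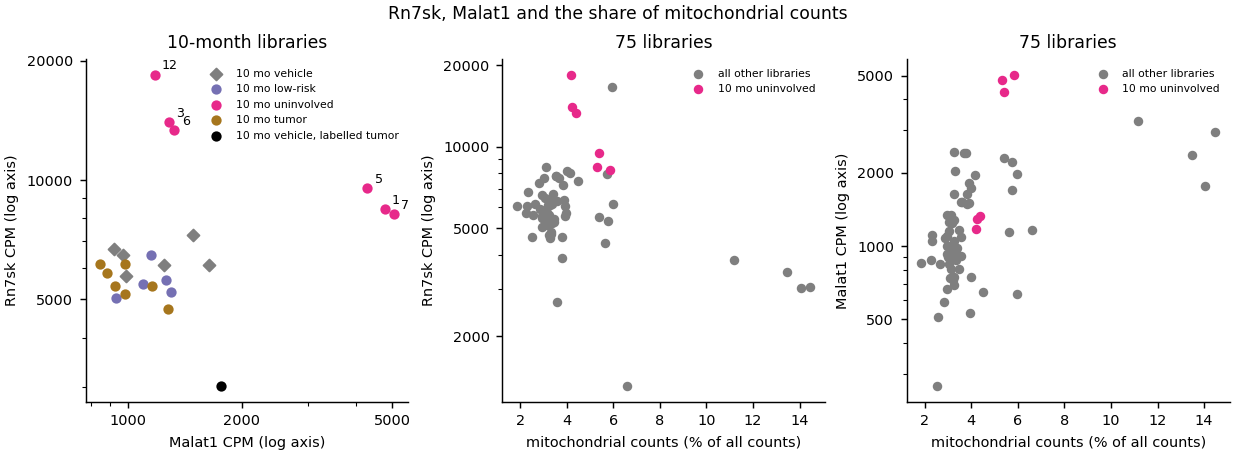
Left, Rn7sk against Malat1 (CPM, log axes) in the libraries of 10 months, with uninvolved libraries numbered; middle and right, Rn7sk and Malat1 (CPM, log axes) against the percentage of mitochondrial counts in all 75 libraries. Uninvolved libraries 3, 6 and 12 have the higher Rn7sk (13349 to 18459 CPM) and 1, 5 and 7 the higher Malat1 (4300 to 5044 CPM), and all 6 have 4.20 to 5.85% mitochondrial counts.

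Cell type markers also differed at 10 months. Summed cholangiocyte markers were 111 to 225 CPM in uninvolved and 39.1 to 55.0 CPM in vehicle liver, with 7 of 7 genes past the threshold and higher. Stellate cell and myofibroblast markers summed to 682 to 946 against 331 to 589 CPM (7 of 11 higher, 1 lower), and T and NK cell markers to 3.71 to 7.61 against 1.38 to 2.13 CPM (5 of 5 tested higher). Hepatocyte markers summed to 79633 to 113737 against 128789 to 154523 CPM (7 of 10 lower). Of the markers, Cftr, Mzb1 and Cd3e were at 0 in 1 vehicle library each. Macrophage (4 of 12 higher, 5 lower) and endothelial markers (3 of 9 higher, 3 lower) went both ways. In tumors, cholangiocyte markers summed to 148 to 805 CPM and stellate cell and myofibroblast markers to 523 to 922 CPM. Their T and NK cell markers summed to 4.11 to 10.8 CPM and their hepatocyte markers to 81636 to 132563 CPM. In bulk liver fewer cells of a type and less RNA per cell cannot be told apart. The part of cell composition in the Rn7sk and Vaultrc5 levels was not tested.

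Tumors lacked the high levels of the uninvolved tissue. Rn7sk in the 7 tumors had a lowest, median and highest level of 4713, 5412 and 6153 CPM, below every uninvolved library (log2 -1.07, SE 0.18; 2.10-fold lower). Vaultrc5 had 0.643, 1.03 and 1.93 CPM (log2 -3.38, SE 0.27), and Neat1 100.1, 128 and 150 CPM (log2 -1.61, SE 0.28). These 3 of the 6 RNAs did not overlap between tumor and uninvolved liver; 18.1% of all genes passed the threshold there, and nothing is read from the count. Malat1 in tumors ran from 846 to 1274 CPM (log2 -1.74, SE 0.34), and its highest tumor lay above the lowest uninvolved library.

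The titles give 6 numbers to both an uninvolved and a tumor library, and the pairing rests on these numbers alone. Uninvolved libraries 3 and 6 count as 1 sample elsewhere, so the ratios of mice 3 and 6 are not independent. In deviations from the group mean, 1 of the 6 uninvolved libraries correlated best with the tumor of its own number. The ratio of uninvolved to tumor for Rn7sk in mice 1, 3, 5, 6, 7 and 12 was 1.56, 2.97, 1.63, 2.58, 1.52 and 3.01. For Vaultrc5 it was 10.8, 15.2, 8.51, 15.9, 10.2 and 9.17, so it was over 8 for each number. Malat1 ratios were 5.16, 1.01, 4.86, 1.35, 4.35 and 1.20, near 1 in mice 3, 6 and 12. Neat1 ratios were 3.00, 1.19, 4.46, 1.79, 4.36 and 1.44. A fit with the mouse number as a block, libraries 3 and 6 separate, gave log2 tumor minus uninvolved differences of -1.07 for Rn7sk, -3.48 for Vaultrc5, -1.24 for Malat1 and -1.24 for Neat1. Without mice 3 and 6 the values were -0.89, -3.26, -1.80 and -1.62.

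**Figure D3:**
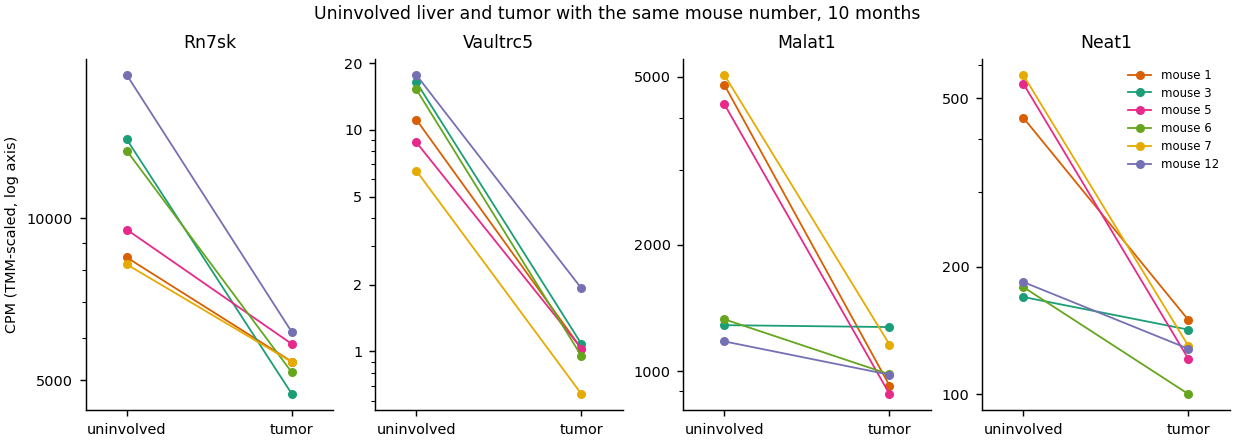
Levels (CPM, log axis) in uninvolved and tumor libraries of 10 months, joined by a line where the title gives the same mouse number (1, 3, 5, 6, 7 and 12). Every Vaultrc5 line falls, by 8.51 to 15.9 times, while the Malat1 ratios of mice 3, 6 and 12 are 1.01, 1.35 and 1.20. The uninvolved libraries of mice 3 and 6 count as 1 sample elsewhere.

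These 4 RNAs differed less between tumor and vehicle livers of 10 months than between tumor and uninvolved tissue. The RNAs were chosen with their uninvolved levels in view, which favours this order, so nothing is read from it. Of all genes, 45.9% passed between tumor and vehicle (3800 higher and 3216 lower, or 7413 and 874 on total counts). Between tumor and uninvolved tissue 18.1% passed. These shares come from separate fits and do not measure closeness. The log2 differences between tumor and vehicle were -0.23 (SE 0.09) for Rn7sk and 0.44 (SE 0.27) for Vaultrc5. They were -0.28 (SE 0.16) for Malat1 and -0.53 (SE 0.33) for Neat1. On total counts the signs of Rn7sk and Malat1 turned, to 0.07 and 0.01. Mean Rn7sk was 5547 CPM in tumors and 6392 CPM in vehicles with TMM factors, and 6036 and 5744 CPM on total counts. Mean Malat1 was 1008 and 1209 CPM with TMM factors, and 1096 and 1089 CPM on total counts. All 4 RNAs overlapped between these groups. Low-risk and vehicle livers differed by -0.22, -0.08, -0.10 and -0.43 on the log2 scale, in a comparison in which 0% of genes passed (0 of 16338 by edgeR, 688 at an unadjusted p under 0.05, and 1 by DESeq2).

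Proteins of the bodies in which Malat1 and Neat1 reside are listed next, as a description, beside the 57.7% of all genes that passed in uninvolved against vehicle liver. Of 16 paraspeckle proteins, 9 were higher and 2 lower in uninvolved than in vehicle liver at an adjusted p of 0.05 (list median log2 0.23, all genes 0.06), so 11 of 16 passed. The core paraspeckle proteins Pspc1, Sfpq and Nono differed by log2 0.92, 0.42 and 0.25. Of 11 nuclear speckle proteins 5 were higher and none lower (median 0.19), among them the splicing coactivators Srrm1 (log2 0.84) and Srrm2 (0.57) and the speckle scaffold Son (0.36). In tumors 6 of the 16 and 3 of the 11 were lower than in uninvolved liver and none higher, where 18.1% of all genes passed.

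Of 12 proteins of the 7SK particle and P-TEFb, 1 was higher and 2 were lower in uninvolved than in vehicle liver, the latter being Hexim1 (log2 -0.26) and Ccnt1 (-0.19), against 57.7% of all genes in either direction. The 7SK-binding proteins Larp7 and Mepce differed by 0.07 each. The kinase gene Cdk9 differed by -0.05. Of the 4 vault genes, Mvp (log2 0.61), Parp4 (0.66) and Tep1 (0.45) were higher and Nsun2, which methylates vault RNA, was lower (-0.35). Among 32 genes of the RNA polymerase III machinery, 8 were higher and 11 lower (median -0.03), and among 10 tested RNase P and MRP proteins 1 was higher and 4 lower. Of 14 genes for processing and decay of such RNAs 1 was higher and 3 lower. On total counts the median of all genes in this comparison was higher, as given above. The counts and the signs of small differences in these lists can therefore depend on the TMM factors. Values of these genes on total counts are not reported here.

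Other small noncoding RNAs did not all follow Vaultrc5. Of 13 tested, 4 were higher and 1 lower in uninvolved than in vehicle liver, beside 57.7% of all genes in either direction. The minor spliceosome RNA Rnu12 differed by log2 3.55 (SE 0.16) and the small nucleolar RNA Snora23 by 3.17 (SE 0.24), close in size to Vaultrc5. The signal recognition particle RNAs Rn7s1 and Rn7s2, also polymerase III products, differed by 0.00 (SE 0.47) and -0.30 (SE 0.20), and the telomerase RNA Terc by -0.06 (SE 0.16). Of 17 other nuclear long noncoding RNAs 9 were higher and 1 lower, near the 57.7% of all genes. The imprinted RNAs Meg3 (log2 2.99), Rian (2.54) and Kcnq1ot1 (1.51) were among those higher.

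The first comparison that did not enter the choice of these RNAs was TBT against vehicle at 3 weeks. No RNA passed the threshold, in a comparison in which 0% of genes did (0 of 14050 by edgeR, 474 at an unadjusted p under 0.05, and 2 by DESeq2). Rn7sk had a lowest, median and highest level of 5216, 5912 and 7974 CPM in 8 TBT livers and 4606, 5585 and 6381 CPM in 7 vehicle livers (log2 0.20, SE 0.12). Malat1 had 727, 1343 and 2401 against 742, 1044 and 1577 CPM (log2 0.39, SE 0.26). The log2 differences of Vaultrc5 and Neat1 were 0.44 (SE 0.31) and 0.53 (SE 0.38). All 4 adjusted p values were 0.999 (edgeR's quasi-likelihood test, Benjamini-Hochberg), and the groups overlapped for each RNA. The labels do not say whether libraries came from separate litters, so p values measure the spread between these samples.

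At 5 months Rn7sk was lower in high-risk than in low-risk liver, in a comparison in which 38.9% of all genes passed and 18.5% passed and were lower. The call rests on the TMM factors. Its lowest, median and highest levels were 2682, 4650 and 7817 CPM in 10 high-risk livers and 3838, 6059 and 16590 CPM in 16 low-risk livers. The groups overlapped, and 9 of 10 high-risk livers lay below the low-risk mean. The difference was log2 -0.53 (SE 0.19, 95% interval -0.90 to -0.16; adjusted p = 0.0258, edgeR). On total counts the difference was -0.20 (SE 0.18, adjusted p = 0.376, edgeR), with the median of all genes at 0.30. There 6187 genes were higher and 999 lower, against 3005 and 2740 with TMM factors. The high-risk and low-risk means of Rn7sk were 4815 and 7030 CPM with TMM factors, and 5651 and 6498 CPM on total counts. Of the 4 RNAs that could be tested, only Rn7sk passed with TMM factors and none on total counts. Its call was also lost without a single library: without low-risk library 24, the highest at 16590 CPM, the difference was -0.38 (adjusted p = 0.0518, edgeR).

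Within sequencing batches the Rn7sk difference was not alike. In batch 2, 7 high-risk livers had a median of 4646 CPM and 10 low-risk livers 6859 CPM (log2 -0.70, adjusted p = 0.0269, edgeR). In batch 1, 3 high-risk livers had 3046, 5445 and 7817 CPM and 6 low-risk livers a median of 5734 CPM (log2 -0.19, adjusted p = 0.809, edgeR). Over all alternatives the adjusted p of this difference ran from 0.00770 to 0.809.

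Vaultrc5, Malat1 and Neat1 did not pass in that comparison. Vaultrc5 had 0, 1.29 and 5.29 CPM (lowest, median and highest) in high-risk and 0.0740, 1.26 and 8.32 CPM in low-risk liver (log2 0.22, SE 0.59). Its sign turned without high-risk library 4 (-0.13), 10 (-0.12) or 13 (-0.01). Malat1 had 266, 1517 and 2933 against 529, 941 and 3254 CPM (log2 0.23, SE 0.33), and Neat1 17.4, 172 and 363 against 25.7, 98.1 and 255 CPM (log2 0.48, SE 0.35). Their adjusted p values were 0.795, 0.601 and 0.290 (edgeR).

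Against 5-month vehicles, where 15.8% of genes passed for high-risk liver (1251 higher and 1090 lower, or 4627 and 320 on total counts), none of these RNAs passed with TMM factors. Neat1 came closest. The 8 vehicles ran from 36.3 to 114 CPM with a median of 86.6 CPM, and 8 of 10 high-risk livers lay above all of them (log2 0.90, SE 0.45; adjusted p = 0.179, edgeR). Without vehicle library 9, which held only 2.83 M counts, the difference was 1.22 with an adjusted p of 0.0420 (edgeR), and on total counts it was 1.28 with an adjusted p of 0.0352 (edgeR). Rn7sk, Vaultrc5 and Malat1 differed by -0.24 (SE 0.24), 0.81 (SE 0.81) and 0.50 (SE 0.41). The sign of Rn7sk turned on total counts (log2 0.14), where its mean was 5651 CPM in high-risk and 4915 CPM in vehicle liver, against 4815 and 5567 CPM with TMM factors. Low-risk liver differed from vehicle by 0.29, 0.59, 0.26 and 0.42 for Rn7sk, Vaultrc5, Malat1 and Neat1, where 0% of genes passed (0 of 14773 by edgeR, 934 at an unadjusted p under 0.05, and 52 by DESeq2). The Malat1 difference was -0.0062 without low-risk library 16, which had 11.2% mitochondrial counts.

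Of the 12 genes of the 7SK particle and P-TEFb, 3 fell and 1 rose in high-risk against low-risk liver (list median log2 -0.04, all genes -0.01), beside 38.9% of all genes. Hexim1, which blocks the kinase when bound to 7SK, fell from 36.9 ± 7.78 (SD, n = 16) to 26.3 ± 5.63 CPM (SD, n = 10; log2 -0.48, SE 0.11, adjusted p = 0.000921, edgeR). The 7SK capping enzyme Mepce changed by -0.33 and cyclin T1 (Ccnt1) by -0.29, while Aff4, a scaffold of the super elongation complex, rose by 0.19. Hexim1 was also lower in high-risk than in vehicle liver (log2 -0.45, adjusted p = 0.0279, edgeR). Cdk9 (-0.12) and Larp7 (0.10) did not pass. On total counts the 3 genes that fell did not pass, at -0.17 for Hexim1, -0.03 for Mepce and 0.04 for Ccnt1 (adjusted p = 0.234, 0.860 and 0.813, edgeR), and Hexim1 was at -0.09 against vehicle (adjusted p = 0.682, edgeR). There 4 of the 12 genes rose (Aff4, Ddx21, Ell2 and Larp7).

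All 3 structural vault proteins rose in high-risk against low-risk liver. Mvp, the major vault protein, had 63.1 ± 19.5 CPM (SD, n = 10) against 38.5 ± 14.1 (SD, n = 16; log2 0.77, SE 0.20, adjusted p = 0.00219, edgeR). Parp4 rose by 0.51 and the telomerase-associated Tep1 by 0.31, and Nsun2 (-0.22) did not pass. On total counts Mvp, Parp4 and Tep1 rose by 1.11, 0.82 and 0.63. Among 32 genes of the polymerase III machinery 4 fell and none rose (median -0.08), beside 38.9% of all genes. Polr3g, an alternative polymerase III subunit, fell from 10.9 ± 2.14 (SD, n = 16) to 5.39 ± 1.29 CPM (SD, n = 10; log2 -0.98, SE 0.13, adjusted p = 7.2e-07, edgeR), and Polr3e, Snapc5 and Polr3a fell by 0.39, 0.35 and 0.22. On total counts Polr3g fell by 0.69 (adjusted p = 3.39e-05, edgeR), none of the other 3 passed, and 9 genes of the list rose.

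The other lists in high-risk against low-risk liver also stand beside 38.9% of all genes. Of 16 paraspeckle proteins, 1 was higher and 1 was lower (the latter Nudt21, log2 -0.21). None of 11 nuclear speckle proteins, 10 RNase P and MRP proteins and 13 other small noncoding RNAs passed. Of 14 processing and decay genes 2 fell (Rbm7 and Elac2). Of 16 other nuclear long noncoding RNAs 5 rose (Airn, Pvt1, Rian, Meg3 and Kcnq1ot1) and 2 fell. On total counts 9 of the 16 paraspeckle and 6 of the 11 nuclear speckle proteins rose and none fell, as did 3 of the 10 RNase P and MRP proteins, 1 of the 13 small RNAs and 6 of the 14 processing and decay genes. In batch 1 alone, with 3 against 6 livers, no gene of these 9 lists passed, and in batch 2 alone the 3 vault proteins did. Stellate cell markers moved with these changes (8 of 11 higher, 1 lower; sums 632 to 1633 CPM in high-risk and 352 to 734 CPM in low-risk liver). So did cholangiocyte (5 of 7 higher), T and NK cell (4 of 4 tested higher), macrophage (6 of 12 higher, 2 lower), endothelial (1 of 9 higher, 6 lower) and hepatocyte markers (1 of 10 higher, 5 lower). On total counts 2 endothelial markers were higher and 2 lower, and 1 hepatocyte marker was higher and 4 lower. There 10 stellate cell, 6 cholangiocyte, 4 T and NK cell and 7 macrophage markers were higher, and 2 macrophage markers were lower. Their part in these results was not tested.

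Between vehicle livers of 5 months and 3 weeks, both of batch 1 and 7 samples each, 24.2% of genes passed (1774 higher and 1842 lower, or 845 and 2920 on total counts) and none of these RNAs did. Vaultrc5 had a lowest, median and highest level of 0.216, 0.911 and 1.65 CPM at 5 months and 0.310, 0.525 and 0.944 CPM at 3 weeks (log2 0.81, SE 0.32; adjusted p = 0.0661, edgeR). It passed by DESeq2 (adjusted p = 0.0228), and by edgeR without 5-month vehicle 9 (adjusted p = 0.0170) or without 3-week vehicle 2 (adjusted p = 0.0386). On total counts its difference was 0.65 (adjusted p = 0.154, edgeR). Vaultrc5 counts were low, at 1 to 34 per library in 5-month and 4 to 11 in 3-week vehicles. The Rn7sk difference was -0.02 (SE 0.17), and it was 0.000256 with protein-coding scaling and -0.18 on total counts. Malat1 differed by -0.16 (SE 0.28), and by -0.53 with an adjusted p of 0.0466 (edgeR) without 5-month vehicle 9. Neat1 differed by 0.28 (SE 0.42), and by -0.10 without that library. Markers of other cells differed between these ages: 9 of 9 endothelial, 7 of 11 stellate cell and myofibroblast, 6 of 12 macrophage and 5 of 6 erythrocyte markers were lower at 5 months, and the other erythrocyte marker was higher. Their part in these results was not tested.

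Partner genes that passed between these ages included genes of the vault list. Mvp (log2 0.99, SE 0.22, adjusted p = 0.00184, edgeR) and Nsun2 (0.53, adjusted p = 0.000195, edgeR), which methylates vault RNA, were higher at 5 months. Tep1 was lower (-0.28), so 3 of the 4 genes passed. Of the structural vault proteins, Mvp was thus higher, Tep1 lower, and Parp4 did not pass. Of the 12 genes of the 7SK particle and P-TEFb, 2 were higher (Aff4 and Ell2) and 2 lower (Larp7, log2 -0.32, and Ccnt2, -0.34), beside 24.2% of all genes. On total counts Aff4 and Ell2 did not pass (adjusted p = 0.196 and 0.151, edgeR). From 5 to 10 months, given as a description, the vehicle levels differed by 0.20 for Rn7sk, -0.36 for Vaultrc5, 0.28 for Malat1 and 0.996 for Neat1. In that comparison 14.1% of genes passed (999 higher and 1108 lower, or 1255 and 762 on total counts). Without 5-month vehicle 9 the values for Malat1 and Neat1 were 0.66 and 1.39.

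**Figure D4:**
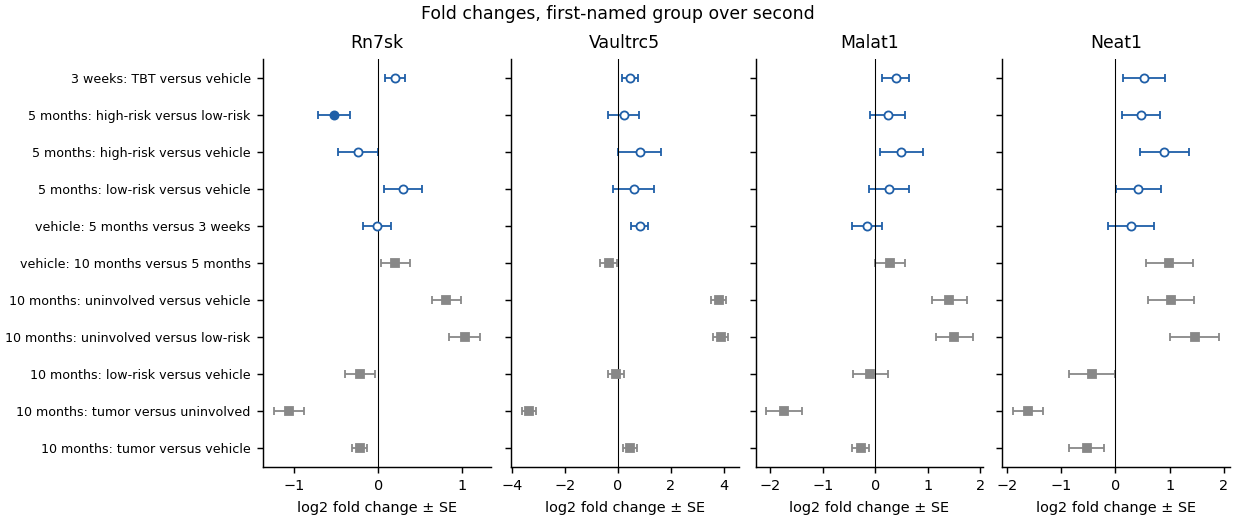
Log2 fold changes with standard errors of Rn7sk, Vaultrc5, Malat1 and Neat1 in 11 comparisons; circles are tested comparisons, filled where the adjusted p is under 0.05, and grey squares are given as a description only. With the TMM factors used here the single filled circle is Rn7sk in high-risk against low-risk liver at 5 months, at -0.53, and Vaultrc5 in uninvolved liver stands at 3.79 and 3.87.

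Ordered by group medians, uninvolved liver was first for Rn7sk, Vaultrc5, Malat1 and Neat1. For Rn7sk the next groups, 10-month vehicle (6288 CPM) to 10-month tumor (5412 CPM), overlapped one another, and 5-month high-risk liver (4650 CPM) was last. For Vaultrc5 the medians of the other groups ran from 1.29 CPM in 5-month high-risk to 0.525 CPM in 3-week vehicle liver. Both 5-month TBT groups were widely spread, with SDs of 2.03 and 2.15 CPM around means of 2.02 and 1.84 CPM (n = 10 and n = 16). For Malat1 and Neat1, 5-month high-risk liver was next after uninvolved liver, at 1517 and 172 CPM. Neighbouring groups below uninvolved liver overlapped for each of the 4 RNAs.

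Genes whose log2 levels followed these RNAs most closely over 72 samples were sought among 13195 genes that averaged 1 CPM or more. Correlations are descriptions across samples that share groups, depth and scaling. Rn7sk was followed by Rn7s6 (r = 0.79), Drap1 (0.79) and Ndufa1 (0.79), and Vaultrc5 by Rnu12 (0.74), Gm24119 (0.73) and Snora23 (0.72). Rnu12 had 9.48 to 16.3 CPM in uninvolved and 0.770 to 1.08 CPM in 10-month vehicle liver, so the uninvolved samples weigh in its r. Malat1 was followed by 4632427E13Rik (0.92), Leng8 (0.91) and Luc7l2 (0.91), and Neat1 by Malat1 itself (0.82), Lncpint (0.81) and Gm26584 (0.80). Rn7sk and Vaultrc5 correlated at 0.64. Rn7sk and Malat1 did not (r = 0.00).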

How the data were processed

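Liver RNA of 75 libraries was analysed as gene counts. The authors deposited 1 table of whole-number counts, with 55536 genes. TruSeq stranded total RNA libraries were made from DNase-treated RNA purified with RNeasy, per the labels' protocols. Reads were processed with Trim Galore, HISAT2 and featureCounts on mm10, per the submitters' processing notes, and counts were adjusted between batches with ComBat-seq, per the file name. Strand, multi-mapping and adjustment settings are not given in the sources used here, and they bear on nested genes and on copies of Rn7sk. Groups follow the labels.

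The tests were edgeR's robust quasi-likelihood F tests (version 4.0.16, R 4.3.3) after filterByExpr and TMM scaling, with a Benjamini-Hochberg threshold of 0.05. All groups of 1 age entered 1 fit, which at 5 months also held the sequencing batch. The deposited counts had already been adjusted between batches, and the p values take no account of that adjustment. Fits of tumors held uninvolved or vehicle livers alone, and fits of vehicle ages only batch 1. Of the 6 RNAs, 4 passed the filter in every comparison, and Rmrp and Rpph1 did not. Standard errors (SE) were taken from the F statistic. Uninvolved libraries 3 and 6 were summed after the data were seen. On simulated counts, with 200 of 14773 genes changed 4-fold in the 5-month risk comparison, 184 were recovered with 10 false calls. Recovery of differences below 4-fold, such as that of Rn7sk (log2 -0.53), was not tested. Recovery where 38.9% of genes differ, the share that passed in that comparison, was not tested either.

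The RNAs, the gene lists and the tests were chosen with earlier results of these data known. Named were all 6 RNAs, up to 4 genes per list with the smallest p, and all genes of lists of 5 or fewer. For Rn7sk, Vaultrc5, Malat1 and Neat1 the 3 genes most correlated in log2(CPM + 0.5) were named as well. Genes named beyond this rule, and those at 10 months, were chosen after their values were seen. Copies were found with BLAST 2.17.0. Alternatives were RLE factors, no filter, DESeq2 1.42.0, protein-coding scaling, no batch covariate, single batches, replicate blocks, separate libraries, counting the tumor-labelled vehicle as a vehicle, other CPM scalings, fits without technically deviating libraries (fewer than 5 M counts, more than 35000 detected genes, or a mitochondrial share over 10%), and, added after the data were seen, leaving out samples of larger groups, batch 1 against vehicle, and total counts without TMM factors. The 6 numbers shared by tumor and uninvolved titles gave deviations correlated at -0.38 to 0.69, with 2 over 0.1, and the 7 numbers shared at 3 weeks gave -0.23 to 0.27, with 4 over 0.1. Some results for genes of the fixed lists are not reported here.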

Additional observations from a re-analysis of the deposited data

Results flagged for a closer look

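Among 40 group values of the RNAs checked for a sample far from its group, 5 stood apart; chance gives about 1 in 20. Rn7sk in 5-month vehicle 9 was 1310 CPM, and the next lowest of the 8 vehicles had 5579 CPM; that library held 2.83 M counts and 38206 detected genes. Malat1 in 5-month vehicle 8, the single vehicle of batch 2, was 1978 CPM, and the next highest had 1164 CPM. Neat1 in 3-week vehicle 3 was 156 CPM against 73.1 CPM in the next, and of its 2 libraries the first had 274 CPM and 13.5% mitochondrial counts and the second 80.0 CPM. Vaultrc5 in 10-month low-risk liver 4 was 1.13 CPM against 0.776 CPM in the next of 5. Rpph1 in 5-month high-risk liver 4 was 0.440 CPM against 0.0838 CPM in the next of 10, at counts too few for a fit. The 5-month low-risk livers (n = 16) were not among the groups checked. Their library 24 had 16590 CPM of Rn7sk, and the next highest of them had 8445 CPM.

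The 10-month vehicle library labelled as a tumor, which entered no comparison, had 1768 CPM of Malat1, above the highest of the 6 vehicles (1640 CPM). Its Rn7sk level was 3017 CPM, below every vehicle, its Vaultrc5 count was 0 in 11.5 M counts, which allows up to 0.229 CPM, and its mitochondrial share was 14.1%.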

How the results depend on the processing

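Of 44 log2 differences of the RNAs, 36 kept their sign in every setting run for them. Signs turned for Vaultrc5 in high-risk against low-risk liver (without technically deviating libraries -0.024, batch 2 only -0.0098, leaving out each sample -0.13 to 0.56), for Rn7sk between vehicle ages of 5 months and 3 weeks (protein-coding scaling 0.000256, without deviating libraries 0.085, leaving out each sample -0.084 to 0.11), for Malat1 in low-risk liver against vehicle (leaving out each sample, -0.0062 to 0.56) and for Neat1 between those ages (leaving out each sample, -0.10 to 0.63). Vaultrc5 in low-risk against vehicle liver of 10 months turned to 0.09 with the tumor-labelled vehicle counted as a vehicle and to 0.0029 on total counts. Total counts also turned Rn7sk in high-risk liver against 5-month vehicle to 0.14 and, in tumor against vehicle, Rn7sk to 0.07 and Malat1 to 0.01. The Rn7sk call in high-risk against low-risk liver was lost on total counts (-0.20), in batch 1 (-0.19) and without low-risk library 24, and Neat1 in high-risk liver against vehicle gained one on total counts (1.28). The cause was not tested.

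Counts of genes past the threshold moved as follows. At 3 weeks they were 3 with no filter and 2 by DESeq2. In high-risk against low-risk liver, batch 1 only gave 773. In high-risk liver against vehicle, no filter gave 1211, total counts 4947, batch 1 only 0 by edgeR (2080 at an unadjusted p under 0.05) and leaving out each sample 1373 to 4264. In low-risk liver against vehicle at 5 months, DESeq2 gave 52, no batch covariate 20, protein-coding scaling 3, no deviating libraries and total counts 1 each, and leaving out each sample 0 to 3. Between vehicles of 5 months and 3 weeks, no filter gave 2172 and leaving out each sample 3064 to 5790. Between 10 and 5 months, no filter gave 1128, DESeq2 3438, no deviating libraries 3605, and leaving out each sample 1319 to 3448. With the tumor-labelled vehicle library counted as a vehicle, 6019 genes passed for uninvolved and 4206 for tumor against vehicle. Low-risk against vehicle at 10 months gave 1 by DESeq2. For tumor against uninvolved liver, the mouse number as a replicate block gave 1889 and leaving out each sample 1580 to 3602, or 3948 without the sum of libraries 3 and 6. As a block at 3 weeks, the title number gave 0 by edgeR (451 at an unadjusted p under 0.05) and differences of 0.14, 0.28, 0.24 and 0.43 for Rn7sk, Vaultrc5, Malat1 and Neat1; this block changed no call of these RNAs.

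A mean Rn7sk of 6253 CPM in tumors per M protein-coding counts, and of 5744 CPM in 10-month vehicles on total counts, moved by more than the SD; the counterparts were 5952 CPM in vehicles and 6036 CPM in tumors. Low counts limit Rpph1 and, outside uninvolved liver, Vaultrc5. Its libraries held 4 to 11 counts in 3-week vehicle, 8 to 19 in 3-week TBT and 10 to 29 in 10-month vehicle liver.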
